A study of Arabidopsis thaliana with 48 samples.

Results

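Of 22746 non-control probe sets on the Arabidopsis ATH1 array, 90 differed between an early and a late part of the day in wild-type Col seedlings and differed little in CCA1OX, a line that overexpresses a clock gene. They were selected on a time-of-day difference, D, computed from log2 group means. D is the mean of the groups light 1080 and dark 1240 minus the mean of the groups light 120 and dark 280, where each number is the minute of the day. A member had an absolute D of at least 0.7 in Col and below 0.3 in CCA1OX. Of the 98 probe sets that passed, 8 were left out by name. The 90 members fell into 31 that were higher early in Col, with a negative D, and 59 that were higher late.

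CCA1 is a MYB-like transcription factor of the circadian clock that peaks at dawn and binds the promoters of evening genes. Clock and light together set when in the day many plant genes are expressed, so a gene can follow the hour, the light, or both. Constant overexpression of CCA1 is known to stop the free-running rhythms of clock-controlled genes and of growth.

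Seedlings were kept in short days for 3 days and then, from dawn of day 4 after germination, in 3 cycles a day of 160 min light and 320 min dark. Minutes 120 and 280 lie in the light and the dark of the first cycle of a day, and minutes 1080 and 1240 at the same points of the third cycle. Col and CCA1OX were each sampled at light 120 (5 arrays), dark 280 (6 arrays), light 1080 (5 arrays) and dark 1240 (5 arrays). The pif4 pil5 double mutant, which lacks a pair of phytochrome-interacting bHLH transcription factors, was sampled at dark 280 (6 arrays). All 48 arrays hold RNA of pooled seedlings grown on medium with sucrose. Hypocotyls were labelled as growing in Col at dark 280 and in CCA1OX in both dark groups, and as not growing in Col at dark 1240, in pif4 pil5 and in the light. Replicates are days 4, 5 and 6 of 2 time courses, so p-values measure the spread between these pools, not between plants. The overexpression is not limited to a cell type by the labels, and RNA came from seedlings, so a change in the level per cell and in the share of cells cannot be told apart.

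The median log2 level of an array was at least 4.57 and at most 4.80. A score over probe sets that respond to light, with members left out, put 3 arrays against their label: Col dark 280 replicate 3, CCA1OX dark 280 replicate 2 and Col light 1080 replicate 3. The score was -0.71 and -0.64 in those dark arrays, against -0.08 to 1.21 in the other 26 dark arrays. It was 0.84 in the light array, against -1.23 to -0.25 in the other 19 light arrays. Membership and the calls of line and light differences are given with and without these arrays, and single values where stated. The transgene and the mutated genes had no named probe set, so the lines were not checked at those genes. Of the marker genes listed for shoot, root, seed and flower, 1 root gene had a named probe set, so the tissue was not checked further. Of the members, 42 carried 1 gene name, 11 of the early-high and 31 of the late-high members, and the others are given by probe set.

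The rule put the members at the edge of a broad distribution. All 22746 probe sets had a median D of -0.01 in Col with an SD of 0.18. In CCA1OX the median was 0.00 with an SD of 0.12. A D of 0.7 or more in size was found in 194 probe sets of Col, 69 higher early (0.303% of all) and 125 higher late (0.55%). CCA1OX had 30 such probe sets. Of the 194, 92 had a D in CCA1OX of at least 0.3 in the same direction and 4 in the opposite one. Among early-high members D in Col ran from -1.81 to -0.71 with a median of -0.95, and in CCA1OX the median was -0.14. Among late-high members D in Col ran from 0.70 to 1.29 with a median of 0.82, and in CCA1OX the median was 0.19. These values chose the members and are a description.

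**Figure D1:**
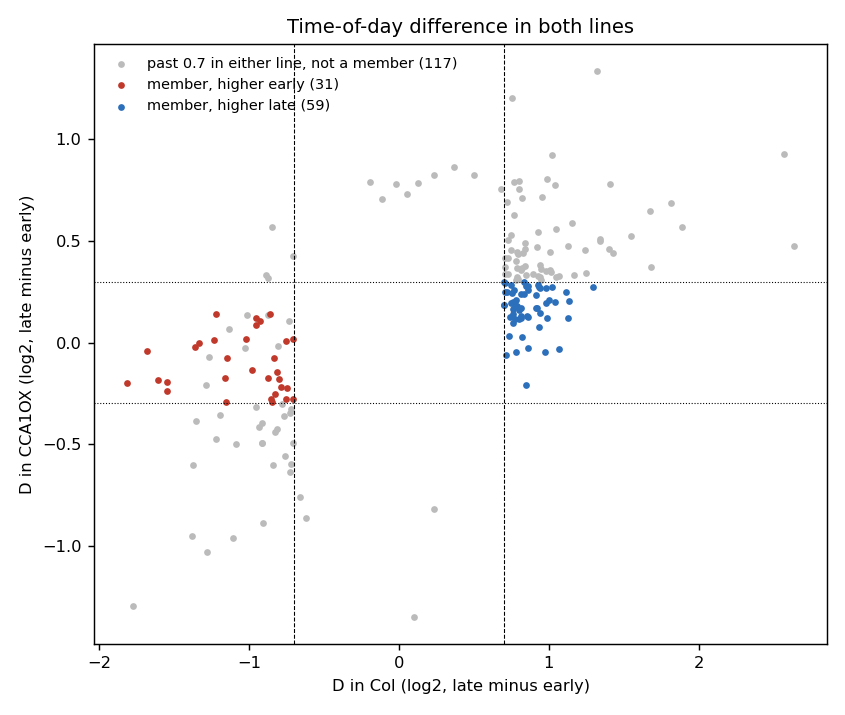
D (late minus early, log2) in Col on the x axis and in CCA1OX on the y axis for probe sets past 0.7 in either line, with the members in red (31 higher early) and blue (59 higher late). Dashed lines mark 0.7 and dotted lines 0.3; grey points inside the member regions are the 8 probe sets left out by name.

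The selected difference was set beside the spread between arrays without reading support from it. In the limma fit, D in Col passed the adjusted threshold of 0.05 in 21 members, 11 early-high and 10 late-high, against 0.268% of all probe sets. D in CCA1OX passed in 0% of all probe sets and in no member, while 516 of all probe sets and 0 members had an unadjusted p under 0.05. The difference of D between the lines passed in 0% of all probe sets too, and 39 members and 572 of all probe sets had an unadjusted p under 0.05. With time course and day as a block in the 42 arrays of Col and CCA1OX, an alternative chosen after seeing the data, the difference passed in 3 early-high and 0 late-high members and in 3 of all probe sets. These were values that chose the members.

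Near the thresholds the choice was a matter of small steps. The late-high AT1G54740 (0.70) and AT5G25840 (0.702) lay just inside and AT1G70820 (0.696) and 256894_at (0.695) just outside. On the early side 264146_at (-0.71) and AT4G27280 (-0.71) lay just inside and AT2G34020 (-0.69) and SUFE2 (-0.66) just outside. For flatness AT5G25840 and AT3G07870, both at 0.30 in CCA1OX, were in, and AT1G29090 (-0.30) and 266984_at (0.31) were out. With the 3 arrays that stood apart left out, the rule would give 53 early-high probe sets, 23 of them members here, and 131 late-high ones, 38 of them members. Leaving out 1 array at a time gave 24 to 49 early-high and 38 to 115 late-high probe sets.

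Each of the array campaigns holds 1 time course of Col and CCA1OX, and the direction of D in Col was the same in both. All 31 early-high members had a negative D in each campaign, with medians of -1.16 and -0.77. All 59 late-high members had a positive D in each, with medians of 0.92 and 0.71. The size varied more. D in Col was past 0.7 in 26 early-high and 46 late-high members in the first campaign and in 18 and 31 in the second. D in CCA1OX was under 0.3 in size in 25 early-high and 36 late-high members in the first and in 25 and 47 in the second. The rule on the first campaign alone shared 20 early-high and 25 late-high members, and on the second alone 12 and 22. Both campaigns entered the rule, so this is a description and no independent repeat. In the second campaign 1 array batch of 4 arrays holds early groups only, replicate 4 of light 120 and dark 280 in both lines. Time of day and array batch thus partly coincide there and cannot be told apart. The median deviation of late-high members was -1.39 and -1.30 in the Col light 120 and dark 280 arrays of that batch. Over days 4, 5 and 6 the median D of Col was -1.38, -1.06 and -0.50 in early-high members and 1.15, 0.80 and 0.87 in late-high ones. A day holds few arrays per group. Day 6 of Col has only replicate 3 at light 120 and at dark 1240. Its other groups include dark 280 replicate 3 and light 1080 replicate 3, which stood apart. In CCA1OX the late-high members had medians of 0.43, 0.05 and 0.07 on those days.

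D is the mean of a difference between light groups and one between dark groups, and these parts are described here as values the rule used. In early-high members the median D of Col was -0.67 between the light groups and -1.25 between the dark groups, with a larger difference in the dark in 26 of 31 members. In late-high members it was 0.90 in the light and 0.88 in the dark, with a larger difference in the dark in 29 of 59 members. The limma test of unequal D in dark and light passed for 0% of all probe sets and for no member, with 9 early-high and 5 late-high members and 519 of all probe sets at an unadjusted p under 0.05. In CCA1OX the difference between the dark groups ran from -0.78 to 0.56 in early-high and from -0.69 to 0.73 in late-high members. A flat D can thus join opposite parts, as in AT5G15950 with 0.43 in the light and -0.78 in the dark of CCA1OX. The lowest point was dark 1240 of Col, where the median early-high member was 1.19 log2 units below its own mean over the 8 groups of Col and CCA1OX. The dark groups of Col did not overlap in 8 early-high and 0 late-high members, and the light groups in 1 and 7. The share over all probe sets is not given here. Separations between groups of Col and CCA1OX named below for single members involve groups that the rule used, so they are a description.

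**Figure D2:**
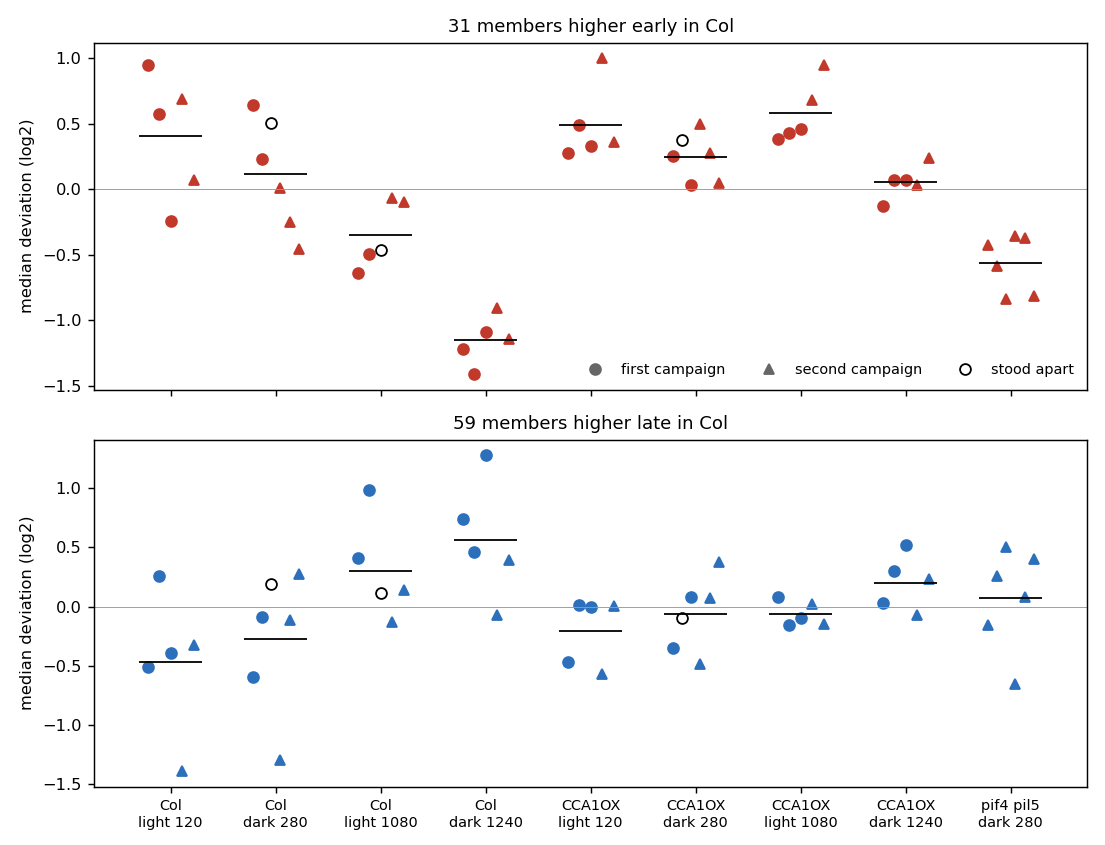
Median over the members of the deviation from each member's mean (log2, y axis) in every array, by group on the x axis, for the 31 early-high (top) and 59 late-high (bottom) members; lines are group means, circles and triangles the first and second campaign, open symbols the arrays that stood apart. The 5 arrays of Col dark 1240 lie lowest in the top panel, and the late-high arrays of Col spread widely within a group.

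AT1G73480, an alpha/beta hydrolase family gene, had the largest D of the named early-high members, -1.14 in Col and -0.07 in CCA1OX. In Col its log2 level was 6.56, 6.63, 6.34, 6.59 and 6.20 at light 120. At dark 280 it ran from 4.91 over a median of 5.94 to 6.64. It stayed at 6.07, 6.19, 5.39, 6.21 and 6.82 at light 1080. At dark 1240 the 5 arrays read 3.95, 4.05, 3.94, 4.33 and 3.43, below every other array of the series for this gene. CCA1OX at dark 1240 read 6.00, 6.43, 5.67, 5.66 and 5.99, so the lines did not overlap at that time. In the dark of the first cycle the 3 arrays of the first time course, 1 of which stood apart, read 6.64, 6.63 and 6.49, near the light level, and those of the second read 5.39, 4.91 and 5.35.

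The unnamed 250665_at showed the same order and had the largest D of all members, -1.81 in Col and -0.20 in CCA1OX. It was at 7.12, 8.41, 7.30, 6.36 and 7.57 at light 120 in Col. It was at 3.07, 3.29, 3.86, 2.59 and 3.35 at dark 1240. In CCA1OX at dark 1240 it was at 5.28, 5.81, 6.32, 5.63 and 6.13, again with no overlap between the lines.

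ARL encodes an ARGOS-like protein that promotes cell expansion, and AT5G62280 encodes a protein of a family with no assigned function. Group means of both in Col were higher in the dark of the first cycle than in the dark of the third, by differences that the rule used. On day 6 D in Col was not negative, at 1.10 for AT5G62280 and 0.29 for ARL. These values rest on replicate 3 alone at light 120 and at dark 1240, and include dark 280 and light 1080 arrays that stood apart. ARL in Col ran from 4.62 over a median of 6.75 to 7.58 at dark 280. It was at 4.65, 5.48, 5.12, 5.04 and 5.34 at dark 1240. The lowest dark 280 value was that of replicate 3, an array that stood apart, and the next lowest, 5.37, lay within the dark 1240 range. In CCA1OX at dark 1240 ARL was at 6.99, 6.19, 6.13, 7.43 and 7.05, above all 5 arrays of Col at that time.

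AT5G62280 ran from 5.07 over a median of 7.73 to 8.34 at dark 280 in Col, its lowest value again in replicate 3. At dark 1240 it was at 5.24, 5.16, 7.62, 4.95 and 6.35 in Col and at 7.14, 7.18, 8.34, 7.78 and 8.27 in CCA1OX. The lines overlapped at dark 1240 through Col replicate 3. D of AT5G62280 without the 3 arrays that stood apart was -1.38 in Col and -0.11 in CCA1OX. For ARL it was -1.02 and -0.34, which takes ARL out of the rule.

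AT4G27280, which encodes an EF-hand protein that binds calcium, lay just inside the threshold with D at -0.71. Its dark 280 values in Col ran from 6.72 to 7.10 and its dark 1240 values were 5.57, 6.13, 5.65, 6.03 and 5.55, without overlap. In CCA1OX the dark 1240 values were 6.89, 6.84, 6.81, 7.44 and 7.05. In pif4 pil5 at dark 280 they ran from 5.71 to 6.47, below all Col arrays of that time.

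Further named early-high members covered several functions. AT5G15950 encodes S-adenosylmethionine decarboxylase of polyamine synthesis (D -0.87), CYP71B26 a cytochrome P450 (-0.80), AT5G59130 a subtilisin-like protease (-0.75) and AT1G80130 a protein with tetratricopeptide-like repeats (-0.98). AT4G18650, AT3G54510 and AT1G15330 had D of -0.83, -0.83 and -0.78. In the 45 arrays without those that stood apart D of Col was -0.49 for AT5G15950, -0.57 for AT1G80130 and -0.55 for AT5G59130, under the threshold of the rule.

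AT5G11070 led the named late-high members with D of 1.11 in Col and 0.25 in CCA1OX. In Col it was at 6.44, 7.27, 6.08, 5.77 and 6.76 at light 120. At dark 280 it ran from 6.08 over a median of 6.63 to 7.73. At light 1080 it was at 7.73, 8.26, 7.19, 7.04 and 7.43, and at dark 1240 at 8.04, 7.55, 8.56, 7.33 and 7.89. All dark 1240 arrays lay above all light 120 arrays, while dark 280 overlapped with both late groups. In CCA1OX all 21 arrays lay between 6.18 and 7.78.

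THIC encodes the chloroplast enzyme that makes the pyrimidine part of thiamine. Its D was 1.00 in Col and 0.21 in CCA1OX. In Col it was at 6.83, 7.55, 6.73, 5.81 and 7.28 at light 120 and at 8.53, 8.90, 6.69, 7.65 and 8.55 at light 1080. The value of 6.69 is that of replicate 3, which stood apart, and the other 4 arrays lay above all light 120 arrays. CCA1OX at light 120 was at 7.26, 8.15, 8.48, 8.10 and 8.19, in the range of the late Col arrays. D of THIC in Col was 1.33 without the arrays that stood apart.

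AT4G01130, a GDSL-type esterase or lipase, had D of 1.55 between the light groups of Col and 0.31 between the dark groups. The limma test of unequal D did not pass the adjusted threshold for this gene. In Col AT4G01130 was at 3.17, 3.98, 3.11, 4.09 and 4.05 at light 120 and at 5.20, 6.04, 4.62, 5.36 and 4.93 at light 1080. These groups did not overlap, which is a description because the rule used them. In CCA1OX light 120 was at 4.31, 4.98, 5.26, 4.53 and 4.57, above every Col array of that time.

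AT5G61590, also named DEWAX, encodes an AP2/ERF factor that represses wax genes in the dark. Its D of 0.94 in Col was 0.49 without the arrays that stood apart, and it was 1.59 in the first campaign and 0.09 in the second. AT3G15450, a gene of the aluminium-induced family that is known to rise in darkness and at low sugar, had a D of 0.98 and of 0.46 without those arrays, so that both left the rule. AT4G34950, a transporter of the major facilitator superfamily, had 0.97 and 0.84. It left the rule too, with D in CCA1OX of -0.05 in all arrays and -0.31 without those. By campaign its D was 1.32 and 0.56 in Col and 0.66 and -0.96 in CCA1OX, so the flat mean of CCA1OX joined opposite differences. AT1G65490 had 1.07 with and 1.59 without them, AT4G12830, an alpha/beta hydrolase family gene, 1.04 and 1.36, and AT3G44970, a cytochrome P450, 1.02 and 1.44. Without those arrays D in CCA1OX was 0.32 for AT4G12830 and 0.38 for AT3G44970, which takes both out of the rule. AT1G78995 had 0.91 and 1.25. The chloroplast-encoded petG, a small subunit of the cytochrome b6f complex, had the most negative D of the late-high members in CCA1OX, -0.21, beside 0.85 in Col. Among the unnamed late-high members 251218_at had the largest D, 1.29, followed by 259640_at with 1.13.

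**Figure D3:**
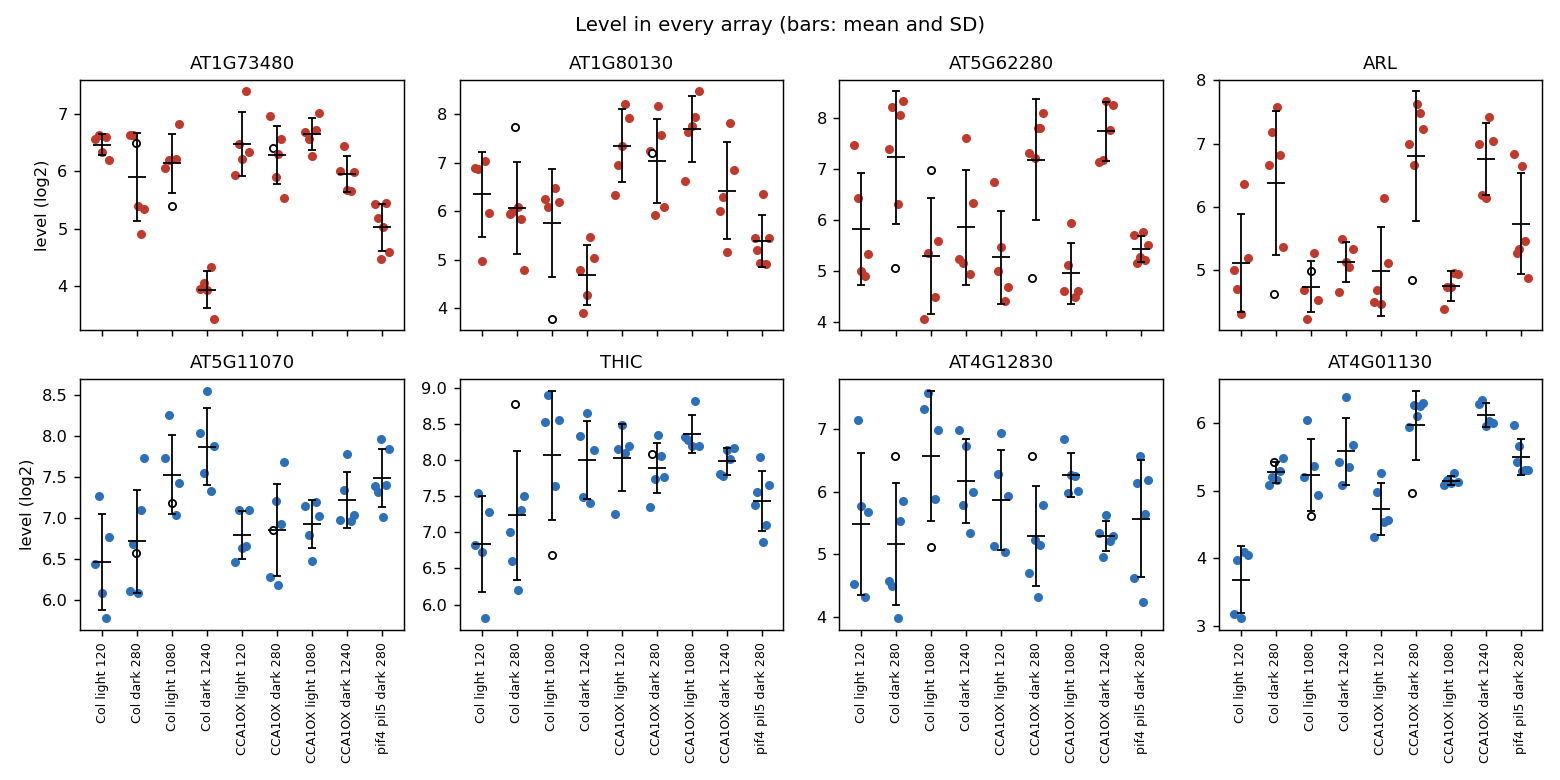
Log2 level in every array (y axis) of 4 early-high (red) and 4 late-high (blue) members in the 9 groups (x axis), with the mean and SD of each group; open symbols are the arrays that stood apart. AT1G73480 is lowest in Col dark 1240, ARL and AT5G62280 are high in the dark of CCA1OX at both times, and AT4G01130 is lowest in Col light 120.

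Whether the flat level of CCA1OX lay near the early or the late level of Col was tested as the mean of the 4 times in CCA1OX minus that in Col. The weights of this contrast correlate with those of D by 0.03 in size. Under equal variance its error is thus close to independent of that of D, though both use the same group means. In 17 of 31 early-high members CCA1OX was higher and in 0 lower, against 5.84% and 5.03% of all probe sets. The median difference was 0.73 on the log2 scale, above 0 in 28 of 31 members, against 0.00 for all probe sets. Without the 3 arrays that stood apart 18 early-high members were higher and 0 lower, against 7.19% and 5.85% of all probe sets. On a scale from 0 at the early to 1 at the late level of Col, CCA1OX had a median place of -0.12 in early-high members, and it was nearer to early Col in 28 of 31. The place is built from group means that the rule used, so it is a description, here and in late-high members.

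By time of day the early-high difference between the lines is a description, since the groups entered the rule. The median of CCA1OX minus Col was -0.02 at light 120, 0.38 at dark 280, 0.76 at light 1080 and 1.74 at dark 1240. CCA1OX was higher in 15, 22, 28 and 28 of the 31 members at these times. AT1G80130 was higher in CCA1OX by 1.41 ± 0.25 (SE) over the 4 times, with a limma adjusted p of 0.000154. AT1G73480 was higher by 0.73 ± 0.14, with an adjusted p of 0.00052. AT4G27280 was higher by 0.44 ± 0.10, with an adjusted p of 0.00186. The other 14 called early-high members had no single gene name.

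In late-high members the lines showed no common order. CCA1OX was higher in 5 and lower in 7 of 59 members, against 5.84% and 5.03% of all probe sets, and the median difference was -0.04. Without the 3 arrays that stood apart 5 were higher and 8 lower, with a median of 0.02, against 7.19% and 5.85% of all. The median place of CCA1OX was 0.45, nearer to early Col in 33 members and to late Col in 26. AT4G01130 was higher by 0.55 ± 0.11 (SE; adjusted p of 0.00118), THIC by 0.53 ± 0.17 (0.0373), and AT2G43530, a defensin-like gene, by 0.62 ± 0.19 (0.0248). AT4G34950 fell by 1.22 ± 0.22 in CCA1OX (adjusted p of 0.000153) and AT1G65490 by 1.18 ± 0.36 (0.0259). THIC no longer passed when 1 of 12 arrays was left out, among them Col light 1080 replicate 3.

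The first campaign alone called 12 members in this comparison, 7 early-high and 1 late-high members higher and 4 late-high ones lower, against 0.703% higher and 0.215% lower of all probe sets. The second called 28, with 18 early-high and 7 late-high members higher and 3 late-high ones lower, against 7.39% and 7.72% of all.

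**Figure D4:**
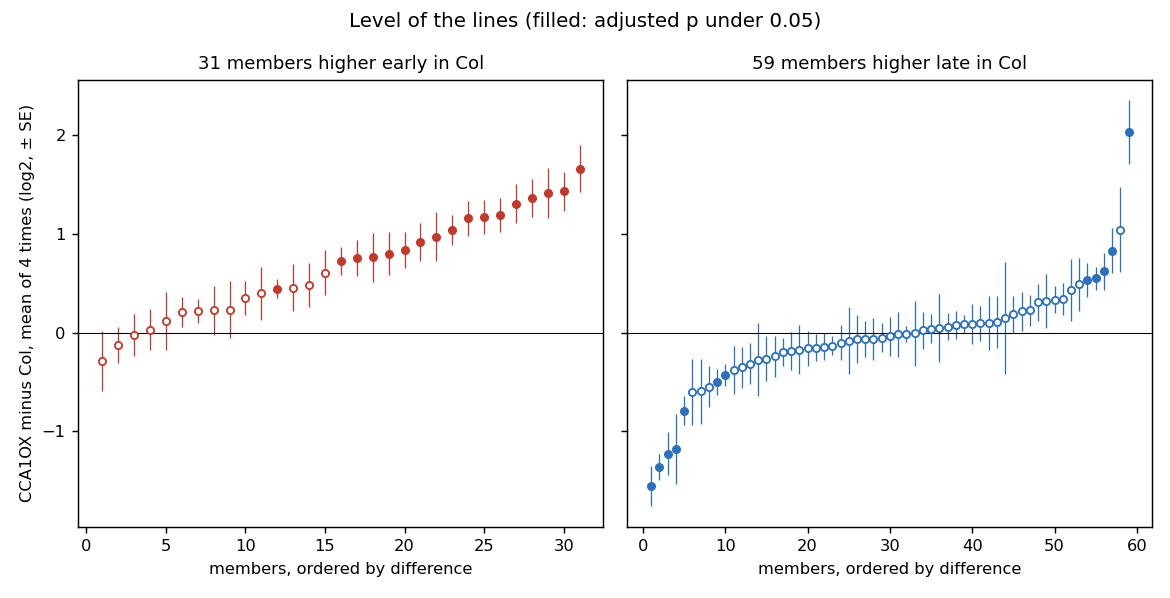
CCA1OX minus Col (mean of the 4 times, log2, y axis, bars are SE) for the 31 early-high (left) and 59 late-high (right) members, each panel ordered by difference; filled points have an adjusted p under 0.05. Of the left panel 28 points lie above 0 and 17 are filled, and the right panel runs from -1.56 to 2.03.

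The response to light was tested as both dark groups minus both light groups within a line, with weights correlated with those of D by 0.04 in size. In Col 0 early-high members were higher in the dark and 14 of 31 lower, while 11 of 59 late-high members were higher and 1 lower. The share of all probe sets was 1.32% higher and 1.92% lower. The rule used both dark groups of Col, so a call can come mainly from dark 1240, the lowest group of early-high members. In Col dark minus light of AT1G73480 was -0.56 in the first cycle and -2.20 in the third. For AT5G15950 it was -1.66 and -1.78. How far the calls reflect light rather than the selected time of day was not tested. AT5G15950 fell by 1.72 ± 0.29 (SE) in the dark of Col (limma adjusted p of 0.000469), AT1G73480 by 1.38 ± 0.20 (4.72e-05) and AT4G18650 by 0.78 ± 0.21 (0.0255). AT4G18650 no longer passed when 1 of 4 arrays was left out, Col light 1080 replicates 1 and 4, Col light 120 replicate 4 and Col dark 1240 replicate 3. When the 3 arrays that stood apart were left out, 5 early-high members were higher in the dark of Col and 14 lower, and 12 and 5 of the late-high members, against 4.23% and 4.76% of all probe sets.

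Of the 11 late-high members that rose in the dark of Col, 6 had no single gene name. Among the 5 named ones AT3G15450 rose by 1.97 ± 0.49 (SE, limma adjusted p of 0.0152), AT4G34950 by 1.93 ± 0.31 (0.000227) and AT5G61590 by 1.85 ± 0.35 (0.00136). AT4G01130 rose by 0.97 ± 0.16 (0.000422) and AT1G49200, a RING finger gene, by 0.84 ± 0.19 (0.00792). AT5G42760, a leucine carboxyl methyltransferase family gene, fell by 2.00 ± 0.52 (0.0213). The call of AT3G15450 was lost without Col dark 1240 replicate 3, and that of AT5G42760 without Col light 1080 replicate 1 or Col light 120 replicate 2.

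In CCA1OX 8 of 31 early-high members were higher in the dark and 11 lower, against 4.95% and 5.29% of all probe sets. Of the late-high members 14 of 59 were higher and 4 lower. Without the 3 arrays that stood apart 8 early-high members were higher and 12 lower, and 15 late-high ones were higher and 6 lower. The share of all probe sets was then 6.69% higher and 6.59% lower. Both lines called 10 early-high members lower, out of 15 called lower in either line, and both called 10 late-high members higher, out of 15 in either. The share of all probe sets called in both lines is not given here, so this overlap is a description. AT5G62280 rose by 2.35 ± 0.41 (SE; limma adjusted p of 8.85e-05), ARL by 1.92 ± 0.32 (4.28e-05) and AT4G27280 by 0.56 ± 0.14 (0.00392). AT5G15950 fell by 1.98 ± 0.29 (1.03e-05), AT4G18650 by 0.85 ± 0.21 (0.0048) and CYP71B26 by 0.80 ± 0.26 (0.0365), which no longer passed when 1 of 10 arrays was left out.

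Among late-high members of CCA1OX AT3G15450 rose in the dark by 3.08 ± 0.49 (SE; adjusted p of 2.68e-05), AT5G61590 by 2.06 ± 0.35 (5.29e-05), AT4G34950 by 1.90 ± 0.31 (3.07e-05) and AT4G01130 by 1.10 ± 0.16 (9.6e-06). Further rises were those of AT1G49200 by 1.41 ± 0.19 (3.93e-06), AT1G23390, a Kelch repeat F-box gene, by 1.36 ± 0.29 (0.00134), and AT2G34510 by 0.79 ± 0.21 (0.00994). AT5G42760 fell by 2.98 ± 0.52 (9.08e-05) and AT1G65490 by 1.84 ± 0.50 (0.0117). AT5G61590 is given as an example, with part of the values behind its calls. In CCA1OX it was at 4.98, 4.86, 4.28, 4.28 and 4.67 at light 120 and at 6.32, 7.08, 7.80, 6.39 and 7.14 at dark 1240. In Col it was at 5.42, 5.02, 4.08, 4.00 and 4.46 at light 120 and at 7.10, 7.24, 8.82, 6.40 and 7.34 at dark 1240. All dark 1240 arrays lay above all light 120 arrays in both lines. These groups differ in time of day as well as in light, and they entered the rule, so this is a description. Within the first cycle dark minus light of AT5G61590 was 1.73 in Col and 1.60 in CCA1OX. Within the third cycle it was 1.96 and 2.51.

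The first campaign alone gave 0 calls of either light response, over all probe sets too, with 1448 probe sets in Col and 2517 in CCA1OX at an unadjusted p under 0.05. It holds all 3 arrays that stood apart. The second campaign alone called 24 members in Col, against 1.15% of all probe sets higher and 1.82% lower, and 35 in CCA1OX, against 4.1% and 4.32%.

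The 8 early-high members that rose in the dark of CCA1OX are described by cycle, with no test, because their groups entered the rule and the dark values of CCA1OX chose these 8. In the first cycle dark 280 exceeded light 120 of Col in all 8, by a median of 0.96 and a range of 0.42 to 1.40. In the third cycle dark 1240 minus light 1080 of Col had a median of -0.02 and a range of -0.14 to 0.56. In CCA1OX the medians were 1.58 in the first cycle and 1.59 in the third. Leaving out the arrays that stood apart gave medians of 1.45 and 0.22 in Col and 1.93 and 1.59 in CCA1OX. These members are AT5G62280, ARL, AT4G27280 and 5 probe sets with no single gene name, 250662_at, 245696_at, 258399_at, 246932_at and 247352_at.

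The 11 early-high members that fell in the dark of CCA1OX were lower in the dark of Col in both cycles, with medians of -1.44 in the first and -2.24 in the third. In CCA1OX these medians were -1.26 and -1.47. Dark and light differences of Col and CCA1OX were compared directly by the interaction contrast, which passed in 0.0044% of all probe sets and in no member. At an unadjusted p under 0.05 there were 13 early-high and 4 late-high members and 858 of all probe sets. Leaving out Col dark 1240 replicate 3 called 2 members, and the second campaign alone called 2. Without the 3 arrays that stood apart the contrast called 0 members, against 0.0264% of all probe sets higher and 0.00879% lower.

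**Figure D5:**
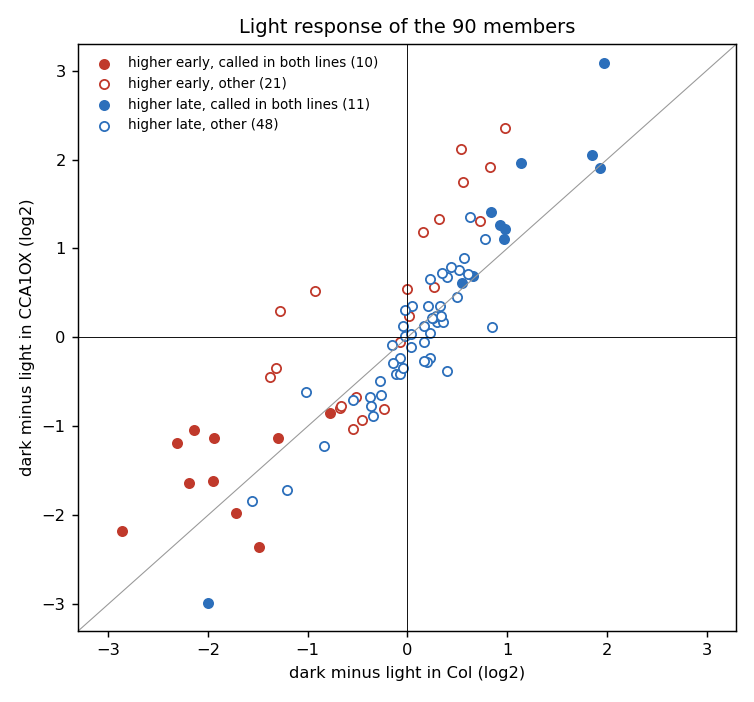
Dark minus light (log2) in Col on the x axis and in CCA1OX on the y axis for the 90 members, early-high in red and late-high in blue, filled where the adjusted p is under 0.05 in both lines; the grey line marks equal differences. The 10 filled red points lie at negative values in both lines and 10 of the 11 filled blue points at positive values.

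The pif4 pil5 seedlings were sampled only at dark 280, so D cannot be computed for them. Col dark 280 and dark 1240 both entered the rule, which took early-high members for high and late-high members for low values at the first of these, so the values below are a description. In early-high members pif4 pil5 minus Col dark 280 had a median of -0.62 and was below 0 in 24 of 31. Without Col dark 280 replicate 3 the median was -0.35, with 23 of 31 below 0. All 6 pif4 pil5 arrays belong to the second campaign, and against the 3 Col arrays of that campaign the median was -0.02, with 16 of 31 below 0. All 6 also lie in array batch 5, together with Col dark 280 replicate 6, while Col dark 280 replicates 4 and 5 lie in batches 3 and 4. Line and array batch thus largely coincide here and cannot be told apart. In late-high members the medians were 0.38, 0.50 and 0.51, with 51, 52 and 55 of 59 above 0. All probe sets had a median of 0.03. Against Col dark 1240 the order turned: the median was 0.96 in early-high members, above 0 in 27 of 31, and -0.31 in late-high members, below 0 in 50 of 59.

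AT5G62280, AT4G34950 and AT5G61590 are given as picked examples, with no count of the members that separate from Col in pif4 pil5. The Col ranges hold both campaigns and the pif4 pil5 ranges only the second, so these values are a description too. AT5G62280 ran from 5.16 to 5.77 in pif4 pil5, below 5 of the 6 Col arrays of dark 280. AT4G34950 ran from 8.10 to 8.73 in pif4 pil5 and from 6.00 to 7.99 in Col dark 280, with no overlap. AT5G61590 ran from 7.41 over a median of 7.54 to 8.21 in pif4 pil5, against 4.28, 6.51 and 7.53 in Col dark 280, with an overlap at the top of the Col range.

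Seedling age was compared as day 6 minus day 4 over all groups. Of the late-high members 26 of 59 were higher on day 6 and 0 lower, and of the early-high members 3 of 31 were higher and 9 lower, against 10.7% and 9.58% of all probe sets. The median was 0.49 in late-high and -0.14 in early-high members. With array batch as a block, which was chosen after seeing the data, 4 late-high members were higher and 2 early-high ones lower, against 0.945% and 1.05% of all probe sets. Days and batches partly coincide. Between days 6 and 5 within array batch 2, 0 members and 0 of all probe sets passed, with 1966 of all at an unadjusted p under 0.05.

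AT2G33850 rose most with age among the late-high members, by 2.10 ± 0.23 (SE; limma adjusted p of 1.12e-08). FACT, which transfers caffeic acid to fatty alcohols of the root waxes, rose by 1.58 ± 0.28 (6.99e-05). AT3G61210, a methyltransferase family gene, rose by 1.38 ± 0.18 (5.82e-07), AT3G07870, an F-box gene, by 1.21 ± 0.13 (1.9e-08), and AT2G05540, a glycine-rich protein gene, by 1.10 ± 0.26 (0.00181). With array batch as a block FACT (adjusted p of 0.271) and AT2G05540 (0.0876) no longer passed.

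Of the early-high members AT1G15330 fell by 1.13 ± 0.23 (SE; limma adjusted p of 0.000393), AT5G59130 by 1.04 ± 0.24 (0.00195), ARL by 0.79 ± 0.23 (0.0121) and AT3G54510 by 0.58 ± 0.12 (0.000344). With array batch as a block AT1G15330 (0.105), ARL (0.32) and AT3G54510 (0.0602) no longer passed. The part of array batch in these age differences cannot be told apart further in the first campaign, where day 4 lies in another batch than days 5 and 6.

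The 15 lists of clock, light, cold, starch, flavonoid, hormone and organ marker genes hold no member, in part because of the names left out. Of their genes 4 passed the rule and were among the 8 left out by name. D of GI, an evening clock gene, was -1.29 in Col and -0.21 in CCA1OX. AT1G69570, on the clock output list, had -1.02 and 0.13. GH3.3 had -1.13 and 0.07 and WES1 -0.73 and 0.11, both on the auxin response list. Few genes of the lists had a named probe set here, 1 of 12 morning clock genes, 1 of 12 evening clock genes and 4 of 13 clock output genes among them.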

How the data were processed

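The deposited values are log2 expression values per probe set of the Affymetrix ATH1 array, which the authors computed with RMA in affy, per the submitters' processing notes; versions are not given in the sources used here. RMA background-corrects, quantile-normalises and summarises the probes of a set, which makes array distributions alike. All else was computed from these values: 64 of 22810 probe sets were controls and were left out. The naming table gave 13513 of them a single gene, of which 13484 matched a current TAIR10.1 locus; 503 named several genes and 8730 were not listed. Members with several genes or none carry only a probe set name.

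Group means gave D. A linear model of limma 3.58.1 (R 4.3.3) held 9 group means over 48 arrays (39 residual degrees of freedom, median residual SD 0.24), and its contrasts were tested two-sided and adjusted by Benjamini-Hochberg over 22746 probe sets at 0.05. Day 6 minus day 4 added day as a factor. The fit was tested on simulated data. Arrays hold no counts, so their number limits the precision.

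The members, lists, contrasts and rule for named genes were chosen with earlier results of these data known. The rule names, per direction, the 10 named members with the largest D in Col, for each contrast up to 5 called ones in each direction, and those at the thresholds. AT1G23390, AT2G34510, AT4G27280 in the contrasts, petG and single unnamed probe sets were added after their values were seen. Alternatives are in the closing section. The title number of a sample, 1 or 2, is the time course of Col and CCA1OX; residuals of arrays with the same number and day correlated by 0.30, with the same number on other days by 0.08. Promoter motifs were not analysed here.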

Additional observations from a re-analysis of the deposited data

Results flagged for a closer look

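In groups of 5 or 6 arrays, 144 groups of values were searched for an array whose gap to the nearest other was large against the range. These were the levels of 14 members, named and unnamed, and the median deviations of the early-high and late-high members. Chance flags about 1 in 20 groups, and 6 were found. The value of AT1G80130 in Col light 1080 replicate 3 was 3.78, while its other arrays read 6.10 to 6.47. The same array read 3.50 for AT1G65490, with 6.52 to 7.11 in the others. For this gene CCA1OX dark 280 replicate 2 read 5.68, with 2.33 to 3.07 in the others. AT5G62280 was at 4.87 in that CCA1OX array, against 7.23 to 8.11. These 4 values lie in arrays that stood apart in the light-response score. AT3G54510 was at 3.32 in CCA1OX light 120 replicate 3, against 3.74 to 3.82. THIC was at 8.82 in CCA1OX light 1080 replicate 4, against 8.20 to 8.33.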

How the results depend on the processing

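Fewer or other arrays moved membership most. The main rule gave 31 early-high and 59 late-high members. Without the 3 arrays that stood apart it gave 53 and 131, from the first campaign alone 55 early-high, and from the second alone 104 late-high ones. Leaving out 1 array gave 24 to 49 and 38 to 115; replicate 2 of Col light 120 took the late-high count to 115, replicate 4 of it to 38, and Col dark 280 replicate 3, Col light 1080 replicate 3 and Col dark 1240 replicate 4 to 92, 106 and 93. Col dark 1240 replicate 4 took the early-high count to 49. Leaving out Col dark 280 replicate 4 took the late-high count to 40. That array and Col light 120 replicate 4 lie in the array batch that holds early groups only. Dark minus light in Col called 26 members, 16 in a fit of only the groups compared, 0 in the first campaign alone and 24 to 30 with 1 array left out. In CCA1OX it called 37, 0 in the first campaign alone and 36 to 40. The interaction called 0, 2 in the second campaign alone and 0 to 2. CCA1OX minus Col called 29, 12 in the first campaign alone and 27 to 30. The difference of D between the lines called 0, and 3 with time course and day as a block, an alternative chosen after seeing the data. Unequal D in dark and light called 0, and 1 with array batch as a block. Day 6 minus day 4 called 38, 6 with array batch as a block, 0 as day 6 minus day 5 within batch 2, and 31 to 40. There AT5G11070 (-0.17), AT4G12830 (-0.069) and AT3G44970 (-0.036) turned their sign between days 6 and 5 in batch 2; the cause was not tested. With the title number as a replicate block the 6 contrasts called 28, 38, 0, 29, 0 and 36 members. Of the named members AT1G80130, AT4G18650 and AT3G15450 lost their age call under that block. Centring the arrays moved the calls of all probe sets in CCA1OX dark minus light to 3.82% higher and 6.5% lower, and in day 6 minus day 4 to 7.77% and 13.3%. No other tested scaling, prior or dim filter moved a member count by over 1.5 times. Group sizes of 5 and 6 limit single members.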
